A study of Mus musculus with 16 samples.

Results

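Podocytes taken 7 days after the immunotoxin LMB2 were compared with podocytes of uninjured mice, to ask how the RNA on podocyte ribosomes changed with toxin injury. The samples were chosen by their titles: 4 arrays of day 7 podocytes and 4 arrays of normal podocytes, 8 of the 16 arrays of the series. All mice were C57BL/6N and carried the RiboTag allele, which puts an HA epitope on the ribosomal protein Rpl22, and Nphs1-Cre, which confines that tag to cells that use the promoter of nephrin. The polysomes of those cells were pulled down with antibody to HA. The day 7 mice also carried the NEP25 transgene, which places human CD25 on podocytes, and had received 0.625 ng of LMB2 per gram of mouse once through the tail vein. The series text gives no NEP25 transgene and no injection to the normal mice, so the transgene and the toxin cannot be told apart in this comparison. The 4 arrays taken at day 4 had the genotype and the dose of the day 7 arrays and serve below as a second reference. Nothing in the labels tells if an array stands for its own animal or for pooled animals, so p-values measure the spread between these samples only.

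Podocytes are the epithelial cells on the outer face of the glomerular capillary. Their interlocking foot processes are joined by the slit diaphragm, a specialised junction built around nephrin, and they hardly divide. LMB2 joins an antibody fragment against CD25 to a bacterial toxin that inactivates elongation factor 2, so the cells that bind it lose protein synthesis. Loss or injury of podocytes leads to protein in the urine and to scarring of the glomerulus. In pulled-down RNA of this kind, fewer podocytes and less RNA per podocyte cannot be told apart, because each array was loaded with a fixed amount of RNA and every level below is relative to its own array.

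Each level is a log2 processed intensity minus the 75th percentile of its array, so 0 is the 75th percentile and 1 unit is a doubling. A difference is day 7 minus normal unless stated, given ± limma's standard error with 4 arrays a group, and a gene is called where the p of limma, adjusted by Benjamini-Hochberg over all 14587 genes tested, was under 0.05. The share of spots that stood clear of background was 49.3% to 54.0% on the normal arrays and 50.4% to 53.3% on the day 7 arrays. The first principal component of the 12 podocyte arrays held 59.1% of the variance, with the normal arrays at -90.6 to -73.7, the day 4 arrays at 4.79 to 38.0 and the day 7 arrays at 52.1 to 72.6. All normal arrays lay on 1 slide and all LMB2 arrays on another, so the slide cannot be told apart from the toxin either. The comparison of day 7 with day 4 lies within 1 slide and 1 genotype, and its values are given beside the main ones. Replicate 1 of the day 4 group stood apart from the other 3 in markers of other cells, with a mean of the proximal tubule list at 1.52 relative to normal against -1.78 to -0.63, a mean of the red blood cell list at 1.42 against -1.64 to -0.86, and a second component at 8.45 against 43.5 to 49.7. Without it, an alternative chosen after seeing the data, 1797 genes were higher and 2855 lower at day 7 than at day 4. Replicate 4 of each group compared held more RNA of proximal tubule genes than the other 3 arrays, as described with the other cell types below. A fit without those 2 arrays, an alternative chosen after seeing the data, gave 2921 genes higher and 4974 lower, and its list counts are given where they differ from the main ones by more than 1.5 times.

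Of the 14587 genes, 8509 (58.3%) were called, 3158 (21.6%) higher and 5351 (36.7%) lower, and the median difference over all genes was -0.14. The list counts below are to be read beside these shares. The normal and day 7 arrays did not overlap for 7381 genes (50.6%). With each array set to its median instead of its 75th percentile every difference was lower by 0.34, so the median over all genes was -0.48 and the split was 1932 higher and 7510 lower, 20.5% of the calls higher in place of 37.1%. Differences of at least 2-fold were more often rises: 1741 genes (11.9%) rose and 1094 (7.5%) fell by that much. Under normexp background correction with an offset, 45 of 146 named genes had a difference smaller by more than 1.5 times. That value is given beside most of the measured differences it concerns. The 146 leave out list members named only for their role. The largest changes were nearly all upward, with 280 genes higher by at least 4 log2 units and 1 gene lower by that much. At day 7 against day 4, 1932 genes (13.2%) were higher and 3020 (20.7%) lower, 4952 (33.9%) in all, and 901 (6.18%) and 381 (2.61%) by at least 2-fold.

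The tagged subunit and the toxin's target did not pass the test. Eef2, elongation factor 2, was at 6.28, 6.36, 6.12 and 6.27 on the normal arrays and 6.24, 6.14, 6.40 and 6.13 on the day 7 arrays, a difference of -0.03 ± 0.09 (adjusted p = 0.81). With each array set to its median the Eef2 difference was -0.36, past the threshold at an adjusted p of 0.039. Rpl22 differed by 0.18 ± 0.13 (adjusted p = 0.25), but its other probe differed by -1.03, the mean of both probes was called lower (-0.43), and quantile normalization called it higher (0.35), so no direction is given for Rpl22.

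Most podocyte transcription factors were lower at day 7. Of 12 podocyte transcription factors tested, 10 fell and 0 rose, with a list median of -0.95 beside -0.14 over all genes. Wt1, which maintains the podocyte state, was at 8.70, 8.59, 8.66 and 8.55 on the normal arrays and 7.74, 7.63, 7.64 and 7.54 at day 7. Its difference of -0.99 ± 0.10 (adjusted p = 1.1e-06) rested on tight groups without overlap. Tcf21, a factor of kidney development, was at 5.50, 4.99, 5.38 and 5.27 in normal podocytes and 3.42, 3.95, 4.27 and 4.05 at day 7, a difference of -1.36 ± 0.17 (adjusted p = 1.2e-05). The forkhead genes Foxd2 (-1.30 ± 0.11) and Foxc2 (-1.25 ± 0.14), Lmx1b (-0.97 ± 0.15) and Dach1 (-0.93 ± 0.11), all factors of podocyte development, fell as well. Klf15 (-0.72 ± 0.61) and Tead1 (0.29 ± 0.18) did not pass, although Tead1 was called higher with quantile normalization. At day 7 against day 4, 7 of the 12 were lower and 0 higher, with Wt1 at -0.84 ± 0.10.

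**Figure D1:**
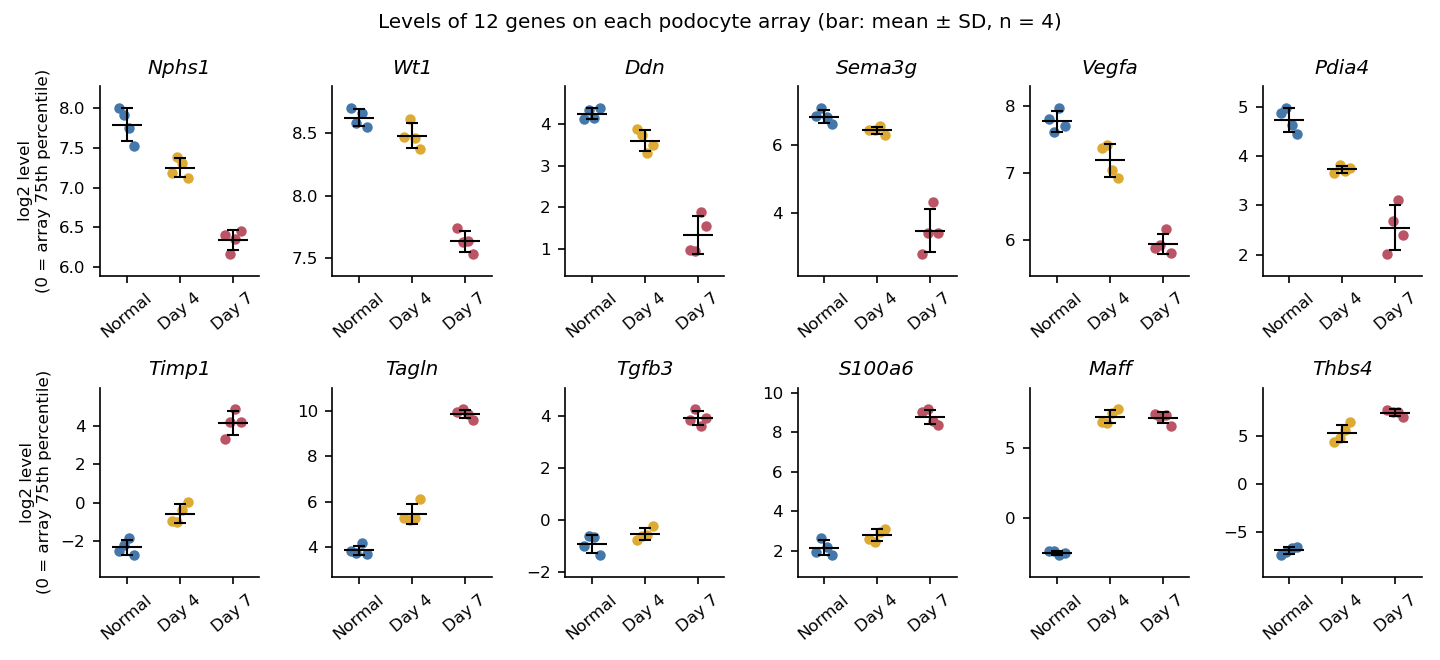
Levels of 12 genes on each of the 12 podocyte arrays, on a log2 scale where 0 is the 75th percentile of the array; points are arrays, bars the mean ± SD of 4 arrays, and each panel has its own vertical scale. Nphs1, Wt1, Ddn, Sema3g, Vegfa and Pdia4 lie lower at day 7 than in normal podocytes, and Timp1, Tagln, Tgfb3, S100a6, Maff and Thbs4 higher, with no overlap between those groups.

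The slit diaphragm genes were split. Of 19 tested, 8 fell, 3 rose and 8 did not pass, with a median of -0.25 beside -0.14 over all genes. All genes were split too, with 36.7% lower and 21.6% higher. That median was -0.45 with quantile normalization, -0.05 under normexp correction, -0.15 without day 7 replicate 4 and -0.10 without replicate 4 of both groups. Nphs1, which encodes nephrin, the transmembrane backbone of the junction, was at 8.0, 7.91, 7.75 and 7.52 on the normal arrays and 6.40, 6.17, 6.36 and 6.45 at day 7. Every day 7 array lay more than a log2 unit below the lowest normal array, a difference of -1.45 ± 0.15 (adjusted p = 2.3e-06). Robo2, the Slit receptor of the podocyte, fell (-1.25 ± 0.12), as did Nck2 (-1.18 ± 0.13) and Nck1 (-0.91 ± 0.14), adaptors that link phosphorylated nephrin to actin. The adaptor gene Cd2ap (-0.70 ± 0.12) and the giant cadherin gene Fat1 (-0.63 ± 0.10) fell too. Magi1, a junction scaffold, rose by 1.08 ± 0.17, Iqgap1 by 0.74 ± 0.18 and Pard6b by 0.56 ± 0.14. The nephrin-like partners Kirrel, also called Neph1 (0.37), Kirrel2 (0.56) and Kirrel3 (-0.25) did not pass, nor did Trpc6 (-0.43 ± 0.62), whose signal was above background on 3 of the 4 day 7 arrays.

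Among genes of the podocyte surface and shape, 13 of 22 fell, 2 rose and the median was -0.44. Rhpn1, a scaffold protein of foot processes, fell the most (-1.91 ± 0.15), followed by Thsd7a, a surface antigen of membranous nephropathy (-1.68 ± 0.18), and Enpep, aminopeptidase A (-1.60 ± 0.17). Podxl, the sialomucin podocalyxin that keeps foot processes apart, was at 7.86, 7.71, 7.79 and 7.64 in normal podocytes and 6.19, 6.41, 6.55 and 6.42 at day 7, a difference of -1.36 ± 0.12 without overlap. Ptpro, a receptor phosphatase of the foot process, differed (-1.32 ± 0.15). Synpo, the actin-binding synaptopodin, fell by its brighter probe (-1.04 ± 0.12), while its other probe gave 0.28. The members that rose were Actn4 (0.88 ± 0.11) and Myh9 (0.95 ± 0.16), which crosslink and contract actin. At day 7 against day 4, 11 of these 22 genes were lower and 2 higher. Among the others, Nes (0.17), Cdkn1c (0.30), Mme (-0.16) and Inf2 (0.21) did not pass the test.

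Signals that podocytes send to the glomerular endothelium changed in both directions. Of 9 tested, 4 fell and 4 rose, with a median of 0.72, and the largest change was a fall. Without replicate 4 of both groups 2 rose, and the median was 0.15 without normal replicate 2, 0.45 without day 7 replicate 4 and 0.34 under normexp correction. Sema3g, a secreted class 3 semaphorin, was at 6.84, 7.09, 6.80 and 6.60 in normal podocytes and 2.80, 3.40, 4.32 and 3.42 at day 7. The difference was -3.35 ± 0.26 (adjusted p = 1.4e-07) or 10.2-fold. At day 7 against day 4 Sema3g was at -2.94 ± 0.26. Vegfa, the growth factor that keeps the fenestrated endothelium alive, was at 7.80, 7.61, 7.97 and 7.70 in normal podocytes and 5.89, 5.93, 6.16 and 5.81 at day 7, a difference of -1.82 ± 0.15 (adjusted p = 2.7e-07), with its other probe at -1.21. Nrp1, a co-receptor for both kinds of ligand (-0.85 ± 0.14), and Bmp7 (-0.65 ± 0.13) fell too. Those 4 falls were each free of overlap between the groups. Angptl4, a secreted lipase inhibitor, rose by 2.07 ± 0.40, Slit2, a ligand of Robo2, by 1.19 ± 0.34, Fgf1 by 0.83 ± 0.25 and Cxcl12 by 0.77 ± 0.28. Slit2 was at 0.53 under normexp correction, and its call was lost under normexp background correction with quantile normalization (0.29).

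The glomerular basement membrane genes separated by chain. Of 20 tested, 7 rose and 5 fell, with a median of 0.28 that turned to -0.05 with each array set to its median. Components of the mature membrane fell: Lamb2, the laminin beta 2 chain, (-1.34 ± 0.13), Agrn, the proteoglycan agrin, (-1.06 ± 0.15), and the collagen chains Col4a3 (-0.87 ± 0.20) and Col4a4 (-0.58 ± 0.15). Col4a5, the third chain of that collagen trimer, was 0.23 ± 0.14 and did not pass. Chains of the developmental and mesangial network were higher, Col4a1 by 1.04 ± 0.28 and Col4a2 by 0.94 ± 0.24, as was the linker nidogen Nid1 by 1.01 ± 0.15. The Col4a1 call was lost with each array set to its median (0.70). Itga3, the laminin receptor chain of the podocyte, fell (-0.43 ± 0.13), while its partner Itgb1 rose by 0.88 ± 0.18 and the linked kinase Ilk by 0.82 ± 0.09.

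The genes that fell furthest among those above background on all 8 arrays were led by Cyp26a1, which breaks down retinoic acid. Cyp26a1 was at 1.05, 2.13, 1.98 and 1.01 on the normal arrays and -3.79, -2.02, -1.88 and -3.90 at day 7, a difference of -4.44 ± 0.57 (adjusted p = 1.3e-05) that was -2.96 under normexp correction. Adra2c, the alpha 2C adrenergic receptor, was at 3.62, 3.45, 3.75 and 3.29 in normal podocytes and -1.13, 0.09, -0.39 and 0.06 at day 7, a difference of -3.87 ± 0.27. Ddn, which encodes dendrin, a protein bound to nephrin's tail, was at 4.13, 4.33, 4.15 and 4.39 in normal podocytes and 0.97, 0.95, 1.88 and 1.54 at day 7, a difference of -2.92 ± 0.19. For all 3 genes the lowest normal array lay more than 2 log2 units above the highest day 7 array. The others were Pld6 (-3.43), a mitochondrial phospholipase, Sema3g, the adaptor Sla (-3.18), the potassium channel Kcna6 (-3.08), Ube2ql1 (-3.07), the oxygen-binding Ngb (-2.99), Angptl2 (-2.92), Rassf10 (-2.88) and the calcium channel subunit Cacna2d2 (-2.87). Under normexp correction Sla was at -2.11 and Ube2ql1 at -1.81. Against day 4, each of these 12 genes was lower at day 7 by between 1.26 (Cacna2d2) and 2.94 (Sema3g) log2 units, beside 20.7% of all genes lower. They were chosen for low values on the same day 7 arrays, so this is not independent support.

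A further 36 genes were well above background on all normal arrays and on no day 7 array. Of them 33 were called, which that choice of genes largely fixes in advance. For such genes only a lower bound of the fall is given, which depends on the background correction used. It sets the mean of the bright group against the lowest signals that still count as above background. Spata21 fell at least 12.6-fold (adjusted p = 0.00018), the adhesion molecule Opcml at least 9.46-fold, the syntrophin Sntg2 at least 6.77-fold, Plk5 at least 5.45-fold and the engulfment receptor Megf10 at least 5.03-fold. Opcml and Megf10 were above background on all 4 day 4 arrays, 0.15 and 0.09 from normal, and lower at day 7 than at day 4 (adjusted p = 8.5e-07 and 0.00088). Under normexp correction the fitted falls of these 5 genes were -1.03 to -0.46 log2 units, smaller than the bounds, which hold for the main processing only. Of these 5 genes Plk5 was the one whose normal and day 7 arrays overlapped.

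The reverse pattern, above background on every day 7 array and on no normal array, held for 329 genes. All of them were called, which that choice of genes largely fixes in advance, so their calls and p-values are not separate support. Thbs4, a thrombospondin of tendon and injured tissue, was at -7.42, -7.04, -6.62 and -6.58 on the normal arrays, below background, and at 7.68, 7.51, 7.46 and 6.90 at day 7. It rose at least 11784-fold (adjusted p = 3.3e-11), and all 4 day 4 arrays lay between the groups. Epha8, an ephrin receptor of the nervous system, rose at least 1744-fold, Crct1, an epidermal gene, at least 1450.1-fold, Prl2a1, of the placental prolactin family, at least 625-fold, and Trim69 at least 520.0-fold. Epha8 stood at -1.24 ± 0.32 at day 7 against day 4 and Crct1 at 8.30 ± 0.59, with 3 day 4 arrays of Crct1 above background. The size of such rises rests on how dim signals are read. The fitted log2 differences behind the bounds were 14.30 for Thbs4, 11.43 for Epha8 and 10.69 for Crct1. Under normexp background correction they were 9.68, 6.90 and 6.87, smaller than the bounds, which hold for the main processing only.

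**Figure D2:**
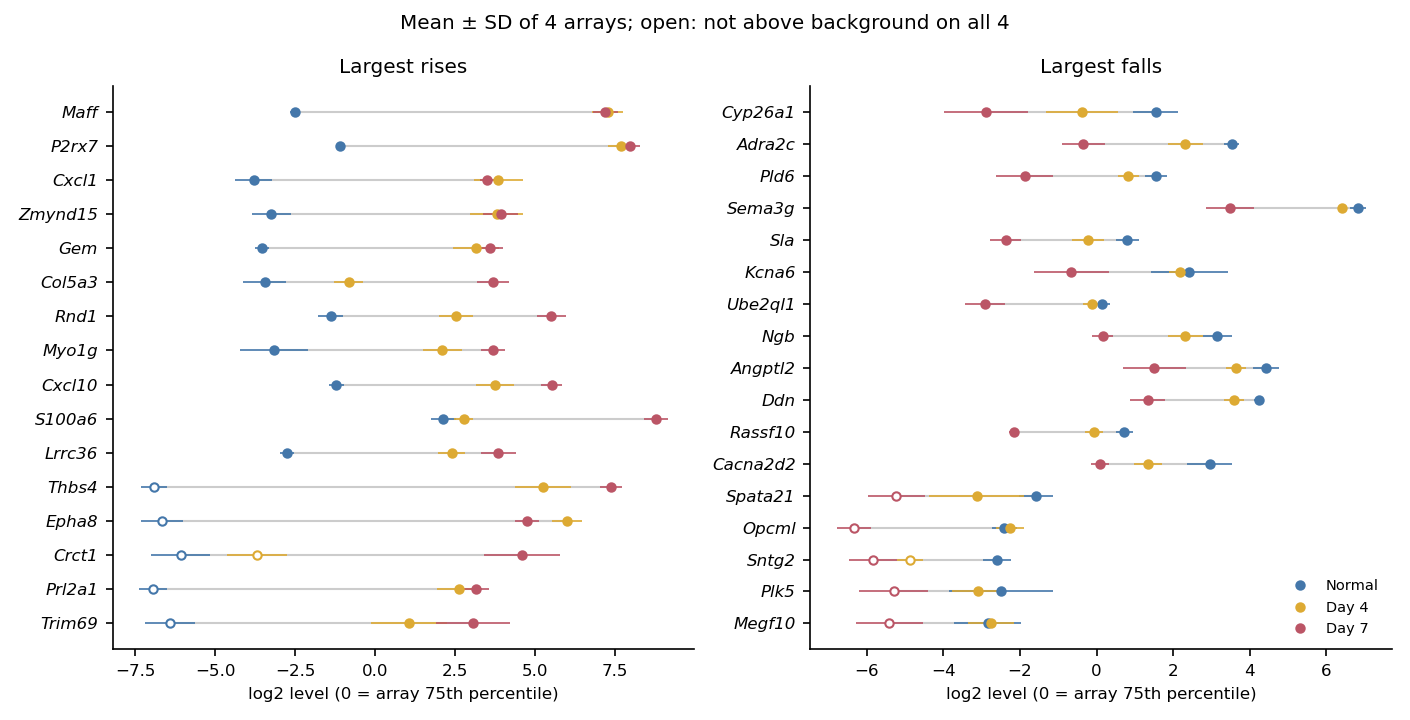
Mean ± SD of 4 arrays of the genes with the largest rises (left) and falls (right) between normal and day 7 podocytes, with day 4 beside them, on a log2 scale where 0 is the 75th percentile of the array; open circles mark groups not above background on all 4 arrays. Maff, P2rx7, Cxcl1, Zmynd15 and Gem stand at day 4 within a log2 unit of their day 7 level, whereas S100a6, Col5a3 and Crct1 lie at least 4 log2 units lower at day 4 than at day 7.

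Among genes measured on all 8 arrays, Maff rose the most. Maff, a small Maf factor that pairs with other leucine zipper proteins, was at -2.39, -2.43, -2.71 and -2.52 in normal podocytes and 7.50, 7.24, 7.43 and 6.64 at day 7, a difference of 9.72 ± 0.23 (adjusted p = 1.5e-12). P2rx7, an ATP-gated ion channel, was at -1.16, -1.07, -0.94 and -1.25 in normal podocytes and 8.22, 7.94, 8.19 and 7.56 at day 7, a difference of 9.08 ± 0.21 that its other probes also showed (7.21 and 10.54). The arrays of each group agreed within 1 log2 unit for both genes, against a gap of more than 8. The differences of Maff and P2rx7 from day 4 were -0.08 ± 0.23 and 0.29 ± 0.21, neither called. Cxcl1, a neutrophil chemokine, rose by 7.31 ± 0.46, Zmynd15 by 7.18 ± 0.39, Gem, a small GTPase, by 7.16 ± 0.32, Rnd1, a GTP-binding protein that loosens the actin skeleton, by 6.90 ± 0.32, Myo1g by 6.85 ± 0.48 and Lrrc36 by 6.60 ± 0.25. Col5a3, a minor fibrillar collagen, rose by 7.15 ± 0.37 and S100a6, a calcium-binding protein, by 6.65 ± 0.24. S100a6 was at 1.93, 2.65, 2.20 and 1.77 on the normal arrays, 2.61, 2.45, 2.94 and 3.10 at day 4 and 9.02, 9.17, 8.59 and 8.36 at day 7. The normal and day 4 arrays of S100a6 overlapped, and day 7 differed from day 4 by 6.01 ± 0.24 (adjusted p = 4.9e-09).

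Promoter letters are shown for 4 of the 11 genes named for the largest measured rises, because their windows held a match to a motif of a factor family whose genes also rose here. The windows run from 250 bases before to 50 after each annotated start (RefSeq, GRCm38.p6), and a window was given for 7 of the 11 rises and 8 of the 12 falls. The 4 motifs were searched on both strands: TGACTCA (AP-1), TGACGTCA (cyclic AMP response element), GGANTTTCC (core of the kappaB site) and the CArG box of serum response factor. No match found here overlapped another. The kappaB core was found in 3 of the 7 rises and 1 of the 8 falls, beside 1.45% of all 27025 genes with a window. AP-1 was found in 2 and 0 (5.95% of all genes), the cyclic AMP element in 1 and 0 (2.03%) and the CArG box in 0 and 0 (1.81%). In the lines below, capitals mark the match and the letters on each side are 5′ to 3′ on the strand of the gene. A match describes these letters and was not tested as a binding site.
Cxcl1, chr5:90891145-90891213, plus strand, kappaB core 70 to 62 bases before the start: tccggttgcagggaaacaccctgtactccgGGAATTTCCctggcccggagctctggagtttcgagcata
Cxcl10, chr5:92349009-92349077, minus strand, kappaB core 158 to 150 bases before the start: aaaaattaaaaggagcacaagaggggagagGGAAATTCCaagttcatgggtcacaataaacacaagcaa
Cxcl10, chr5:92348927-92348993, minus strand, AP-1 74 to 68 bases before the start: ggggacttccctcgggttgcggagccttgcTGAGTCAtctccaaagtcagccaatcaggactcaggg
Maff, chr15:79347461-79347519, plus strand, cyclic AMP element 29 to 22 bases before a start: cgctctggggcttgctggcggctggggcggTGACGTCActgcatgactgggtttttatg
Maff, chr15:79348302-79348370, plus strand, kappaB core 70 to 62 bases before another start: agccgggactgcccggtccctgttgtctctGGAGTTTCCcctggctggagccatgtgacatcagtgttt
P2rx7, chr5:122643677-122643714, plus strand, AP-1 249 to 243 bases before the start: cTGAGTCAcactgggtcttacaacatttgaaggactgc

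Immediate early genes, which answer stress and growth signals without new protein synthesis, were mostly higher. Of 29 tested, 25 rose, none fell and 4 did not pass, with a median of 2.17, or 1.40 under normexp correction with quantile normalization. Egr1 was at 0.55, 0.25, 1.66 and 0.66 on the normal arrays and 7.57, 7.17, 7.25 and 6.66 at day 7, a difference of 6.38 ± 0.52 (adjusted p = 2e-07). Egr2 differed by 6.32 ± 0.49, with 1 normal array above background, and by 3.57 under normexp correction. Of the AP-1 subunits, Fosl1 rose by 4.64 ± 0.32 (2.24 under normexp correction), Fos by 3.45 ± 0.71, Fosb by 3.06 ± 0.42, Junb by 2.80 ± 0.31 and Jun by 1.53 ± 0.27, while Jund (-0.38 ± 0.16) did not pass. Atf3 rose by 3.38 ± 0.34 and Myc by 4.41 ± 0.38. Phosphatases that switch off MAP kinases rose too, Dusp4 by 4.45 ± 0.39, Dusp6 by 2.92 ± 0.18 and Dusp5 at least 11.5-fold. At day 7 against day 4, 10 members were higher and 2 lower, and the Egr1, Egr2, Fos and Maff differences between the days were 0.23, 0.12, 0.12 and -0.08, none called. Nr4a3 and Nr4a1, nuclear receptors of the early response, were lower at day 7 than at day 4 (-1.58 ± 0.24 and -2.16 ± 0.60), and Nr4a1 was not called against normal (1.41 ± 0.60).

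Genes of the NF-kappaB pathway rose with 1 exception. Of 18 tested, 17 rose and 1 fell (Birc2, -0.65 ± 0.11), and the median was 2.67. The adhesion molecule Icam1, a target, was above background on every day 7 array and on no normal array, and rose at least 61.1-fold. That pattern largely fixes its call in advance, so the call is not separate support. The atypical inhibitor Bcl3 rose by 4.99 ± 0.45, the feedback inhibitors Nfkbie by 3.75 ± 0.14, Tnfaip3 by 3.42 ± 0.26 and Nfkbia by 2.66 ± 0.22, and the subunits Relb by 2.79 ± 0.27 and Nfkb2 by 2.68 ± 0.21. Rela and Nfkb1, the subunits of the main dimer, rose by 0.47 ± 0.11 and 0.43 ± 0.15. Nfkbie was at 1.25, 0.88, 1.40 and 1.38 in normal podocytes, 1.84, 2.04, 2.04 and 2.29 at day 4 and 5.17, 5.03, 4.91 and 4.81 at day 7. Relb, Nfkb2, Tnfaip3 and Bcl3 differed between day 7 and day 4 by 0.13, -0.05, -0.08 and -0.59, none called, while Nfkbie differed by 2.92 ± 0.14.

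Cytokine and chemokine genes were mostly higher. Of 18 tested, 14 rose and 0 fell, with a median of 3.24 that was 0.81 under normexp correction, although 4 members had no probe above background in any group. Of the 22 members with a probe, 10 were above background on all normal arrays and 11 on none. At day 7 these counts were 15 and 4. Members dim in normal podocytes could rise but hardly fall, so the split is partly built in by the filter. Cxcl10, which attracts T cells, was at -1.33, -1.45, -0.91 and -1.15 on the normal arrays and 5.22, 5.53, 5.35 and 5.98 at day 7, a difference of 6.73 ± 0.30 (adjusted p = 6.9e-10). Ccl2 and Ccl7, which attract monocytes, were below background in normal podocytes and rose at least 52.1-fold and 14.8-fold, while 1 and 0 of their day 4 arrays were above background. Under normexp correction their fitted differences were 2.34 and 1.26 log2 units, smaller than these bounds. Csf1, the macrophage growth factor, rose by 4.33 ± 0.20, Ccl5 by 4.24 ± 0.39, Tslp by 4.50 ± 0.50 and Cxcl16 by 4.43 ± 0.23, and Tnf rose at least 5.25-fold. Cxcl16 was lower at day 7 than at day 4 (-1.26 ± 0.23). Il18 (-0.48 ± 0.21), Il33 (1.07 ± 0.55), Il1b (1.30 ± 0.67) and Lif (0.35 ± 0.44) did not pass, and Il6, Il1a, Csf2 and Ccl20 were not above background. Beside these rises, 6 of 19 leukocyte markers rose, against 21.6% of all genes. The mean of that list relative to normal was 1.02, 1.05, 0.69 and 0.51 on the day 7 arrays against -0.41, -0.03, 0.66 and -0.22 on the normal arrays. The part of leukocyte RNA in the chemokine differences was not tested.

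Receptors and feedback genes of JAK-STAT signalling moved both ways, 5 of 15 higher and 4 lower, with a median of -0.02. Over all genes 21.6% were higher and 36.7% lower. Osmr, the oncostatin M receptor, rose by 2.48 ± 0.28, and its partner chain Il6st by 0.54 ± 0.11, while Lifr (-0.89), Il6ra (-0.84), Il4ra (-0.74) and Il11ra1 (-0.72) fell. With the mean of its probes Lifr was at -0.46. Il4ra had a second probe of the opposite sign (0.83). The feedback gene Socs2 rose by 2.15 ± 0.19 and the kinase gene Pim1 by 0.99 ± 0.24 (0.58 under normexp correction), and Socs3 (-0.27 ± 0.40) did not pass.

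In the acute phase and complement list 9 of 17 genes rose and 3 fell. Saa3, an acute phase protein of tissues, was below background in normal podocytes and rose at least 45.5-fold, and C3, the central complement component, rose by 3.09 ± 0.44, C1qa, a chain of the complement recognition protein that macrophages make, by 2.70 ± 0.47 (0.63 under normexp correction), Clu, the chaperone clusterin, by 2.23 ± 0.20 and Cp, ceruloplasmin, by 1.96 ± 0.38. The fitted log2 difference of Saa3 was 6.12, and 2.08 under normexp correction. Regulators that protect the cell's own surface from complement fell, Cd55 (-1.41 ± 0.15) and Cd59a (-1.07 ± 0.13). C3 was at 1.82, 0.58, 1.38 and 0.84 in normal podocytes and 5.26, 4.51, 3.23 and 3.99 at day 7. Cd55 was at 6.08, 6.02, 5.99 and 5.69 in normal podocytes and 4.54, 4.30, 4.71 and 4.59 at day 7. Neither gene had groups that overlapped.

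Antigen presentation and interferon-stimulated genes were called in both directions, as were all genes tested (21.6% higher and 36.7% lower). In the antigen presentation list 4 of 17 rose and 3 fell, with 2 higher without replicate 4 of both groups and a median of 0.29 that turned to -0.04 with each array set to its median and was 0.01 without day 7 replicate 2. H2-DMa rose by 1.44 ± 0.25 (0.76 under normexp correction), Psmb8 by 1.10 ± 0.32, B2m by 1.04 ± 0.32, while H2-T23 (-1.05 ± 0.19) and Tap1 (-1.06 ± 0.33) fell. The Psmb8 call was lost with each array set to its median (0.77, adjusted p = 0.050) and without replicate 4 of both groups. Of 24 interferon-stimulated genes, 4 rose, 3 fell and 17 did not pass. Isg15, a ubiquitin-like modifier, rose by 2.86 ± 0.30, Irf1 by 1.21 ± 0.29 and the GTPase Gbp2 by 0.97 ± 0.37. The Gbp2 call was lost under 9 alternatives, and its difference was 0.63 both with each array set to its median and without normal replicate 2. The Ifit1, Ifit2 and Ifit3 differences of 0.58, 0.23 and -0.13 did not pass. Irf1 was lower at day 7 than at day 4 (-1.38 ± 0.29).

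Genes of matrix and scarring were mostly higher. Of 26 tested, 17 rose and 1 fell, with a median of 1.47 beside -0.14 over all genes, or 0.90 under normexp correction (2 fell without replicate 4 of both groups). All 3 transforming growth factors beta rose: Tgfb3 by 4.80 ± 0.19, Tgfb2 by 4.77 ± 0.29 and Tgfb1 by 1.81 ± 0.13. Tgfb3 was at -0.99, -0.60, -0.66 and -1.35 on the normal arrays, -0.76, -0.61, -0.57 and -0.22 at day 4 and 3.85, 4.24, 3.59 and 3.91 at day 7, so its day 7 arrays stood apart from both other groups (4.43 ± 0.19 against day 4). Lgals3, the lectin galectin 3, rose by 4.89 ± 0.33, the fibrillar collagen Col1a1 by 3.02 ± 0.31, the matrix proteins Ccn2 by 2.28 ± 0.33, Fn1 by 2.23 ± 0.61 and Tnc by 2.09 ± 0.38, and the collagen crosslinker Lox by 2.05 ± 0.30. Thbs1 fell (-0.80 ± 0.16), against the rise of Thbs4. Col3a1 (-0.22 ± 0.44) and Col1a2 (0.16 ± 0.22) did not pass.

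Proteases and their inhibitors rose in 10 of 20 cases and fell in 3, with a median of 1.32, or 0.64 under normexp correction. Timp1, the tissue inhibitor of metalloproteinases 1, was at -2.51, -2.21, -1.82 and -2.72 in normal podocytes and 3.33, 4.22, 4.86 and 4.21 at day 7. Its day 7 arrays lay more than 5 log2 units above the highest normal array, a difference of 6.47 ± 0.32 (adjusted p = 1.6e-09). Timp3, the inhibitor bound to matrix, fell (-0.75 ± 0.13). Plat, tissue plasminogen activator, fell (-1.91 ± 0.16), while Plau, the urokinase activator, rose by 2.20 ± 0.30 and its receptor Plaur by 3.70 ± 0.27. Plaur was at -0.31 at day 4 against normal and 4.01 ± 0.27 at day 7 against day 4. Mmp13, a collagenase, rose at least 10.4-fold, Adam8 at least 7.24-fold, Adamts4 by 3.58 ± 0.53, Adamts1 by 2.64 ± 0.24 and Mmp2 by 2.00 ± 0.57. Mmp7, Mmp9, Mmp10, Mmp12 and Mmp19 had no probe above background in any group.

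**Figure D3:**
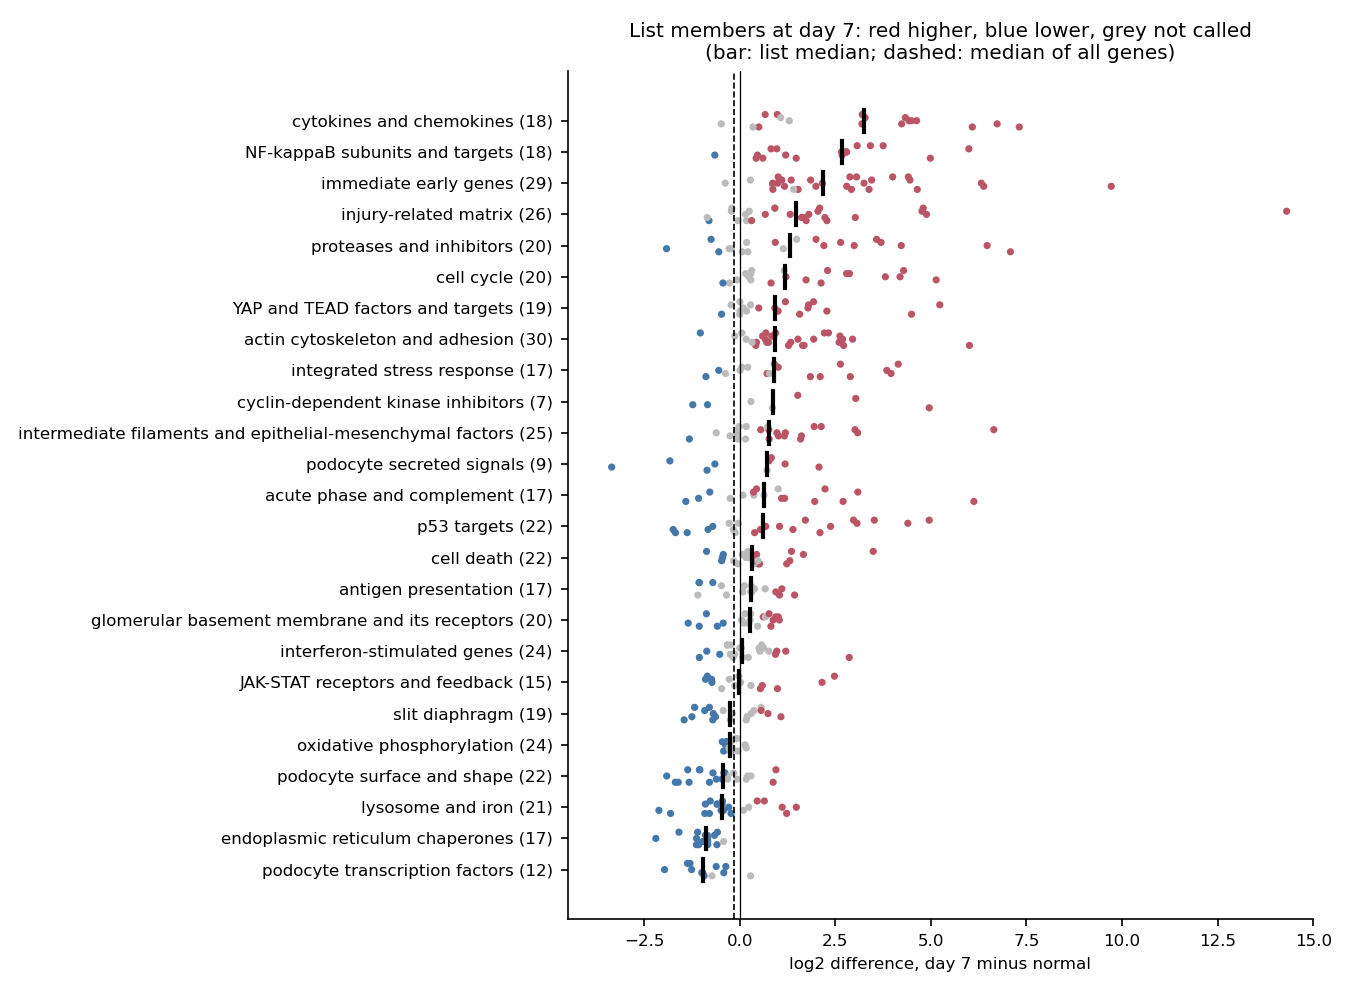
Difference between day 7 and normal podocytes of each tested member of 25 gene lists, on the log2 scale, with the number of tested members in brackets; red members were called higher, blue lower and grey not called, the bar is the list median and the dashed line the median of all genes at -0.14. The cytokine, NF-kappaB and immediate early lists have medians of 3.24, 2.67 and 2.17, and the endoplasmic reticulum chaperones and podocyte transcription factors medians of -0.89 and -0.95.

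Genes of the actin cytoskeleton and of adhesion rose in 24 of 30 cases and fell in 1, with a median of 0.92. Tagln, which encodes the actin-binding transgelin, was at 3.82, 3.74, 4.17 and 3.70 in normal podocytes and 9.95, 10.07, 9.85 and 9.60 at day 7, a difference of 6.01 ± 0.25 (adjusted p = 3.9e-10). Actn1, the alpha actinin of focal adhesions, rose by 2.95 ± 0.13, beside 0.88 for the podocyte form Actn4. The fibronectin receptor chain Itga5 rose by 2.72 ± 0.30 (1.56 under normexp correction), the calponin Cnn2 by 2.69 ± 0.17, the capping protein Capg by 2.62 ± 0.15, the tropomyosins Tpm1, Tpm2 and Tpm4 by between 1.52 and 2.60, the focal adhesion protein Zyx by 2.21 ± 0.13 and the hyaluronan receptor Cd44 by 2.32 ± 0.33. The member that fell was Itgb5 (-1.03 ± 0.12). At day 7 against day 4, 20 of the 30 were higher and 1 lower, with a median of 1.07 beside -0.07 over all genes.

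Of the YAP and TEAD list 11 of 19 genes rose and 1 fell. The rises were among the targets, Ankrd1 by 5.23 ± 0.24, Ccn1 by 4.49 ± 0.38, Ccn2 by 2.28 ± 0.33 and Axl by 1.93 ± 0.19, and in Tead3 (1.57 ± 0.27). The coactivators Yap1 (-0.22 ± 0.09) and Wwtr1 (0.10 ± 0.15) did not pass.

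Of the intermediate filament and epithelial-mesenchymal list 14 of 25 genes rose and 1 fell. Des, the muscle filament protein desmin used as a mark of podocyte injury, was at -1.66, -1.19, -1.62 and -1.62 in normal podocytes, -1.09, -1.73, -1.46 and -1.19 at day 4 and 1.42, 1.33, 1.48 and 1.73 at day 7. The normal and day 4 arrays overlapped and the day 7 arrays stood apart, 3.02 ± 0.16 from normal and 2.86 ± 0.16 from day 4. Vim rose by 1.19 ± 0.11, Krt18 by 2.13 ± 0.42, S100a4 by 3.09 ± 0.29 and Acta2, smooth muscle actin, by 1.59 ± 0.32. Snai1, a repressor of epithelial genes, rose by 1.95 ± 0.20, while Snai2 (0.16), Zeb1 (-0.07), Zeb2 (-0.01) and Twist1 (-0.25) did not pass. Krt8 (1.62 ± 0.63, adjusted p = 0.039) lost its call under 11 of the alternatives and was at 0.86 under normexp correction. Mesangial and smooth muscle cells use several of these genes, and their list moved in the same direction: 7 of 17 members rose and 1 fell, with a summed level of 56.4 to 82.3 times the 75th percentile on the normal arrays and 851 to 1145 at day 7. Tagln, a member of both that list and the actin list, held most of the day 7 sum: the other 16 summed to 42.2 to 64.3 and 55.8 to 79.5. The defining markers Pdgfrb (-0.48 ± 0.22) and Itga8 (-0.23 ± 0.21) were above background on all 8 arrays and not called.

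Targets of p53, the factor that answers DNA damage and ribosome stress, were split, with 13 of 22 higher and 5 lower. Cdkn1a, which encodes the cell cycle inhibitor p21, was at -0.49, -0.73, -2.29 and -2.34 in normal podocytes and 4.43, 3.42, 3.46 and 2.67 at day 7, a difference of 4.96 ± 0.50 (adjusted p = 1.5e-06), with 1.90 at its other probe. The polo-like kinases Plk2 and Plk3 rose by 4.40 ± 0.36 and 3.52 ± 0.33, the secreted factor Gdf15 by 3.07 ± 0.40 and the death receptor Tnfrsf10b by 2.98 ± 0.19. Under normexp correction Plk2 was at 2.83 and Gdf15 at 1.94. Ei24 (-1.74 ± 0.11), Trp53inp1 (-1.68 ± 0.18) and Ddb2 (-1.37 ± 0.11), also p53 targets, fell, and Sesn2 (-0.27), Zmat3 (-0.16) and Ccng1 (-0.03) did not pass. Cdkn1a, Phlda3, Tnfrsf10b and Gdf15 differed between day 7 and day 4 by 0.58, -0.15, 0.24 and 0.39, none called.

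The other inhibitors of cyclin-dependent kinases moved apart. Cdkn2a was below background in normal podocytes and rose at least 5.77-fold, and Cdkn2b rose by 1.52 ± 0.32 (0.72 under normexp correction), whereas Cdkn1b (-1.23 ± 0.16) and Cdkn2d (-0.84 ± 0.15) fell. Under normexp correction the fitted difference of Cdkn2a was 0.57 log2 units, smaller than its bound. Cdkn1c, the inhibitor that marks the quiescent podocyte, differed by 0.30 ± 0.13 (adjusted p = 0.063).

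Cell cycle genes rose in 11 of 20 cases and fell in 1, with a median of 1.19, or 0.73 under normexp correction. Birc5, which encodes survivin, was at -2.50, -2.29, -2.68 and -2.82 on the normal arrays and 2.81, 2.79, 2.50 and 2.17 at day 7, a difference of 5.14 ± 0.34 (adjusted p = 2.4e-08). Ccnb2, Ccna2 and Plk1 were higher, with 2, 1 and 3 of the normal arrays above background. Their fitted differences were 4.29 ± 0.39, 4.19 ± 0.38 and 3.81 ± 0.29, and 1.97, 1.60 and 1.93 under normexp correction, so their size rests on how dim signals are read. Ccnd1, the cyclin of entry into the cycle, rose by 2.13 ± 0.22. Mki67, a mark of cycling cells, rose by 1.74 ± 0.49. The replication helicase genes Mcm2 (0.24), Mcm3 (0.29) and Mcm5 (0.32) did not pass, Mcm6 rose by 0.82 ± 0.14, and Cdk2 fell (-0.44 ± 0.14). Of the cell death list 9 of 22 rose and 4 fell, and 5 rose without replicate 4 of both groups. Over all genes 21.6% were higher and 36.7% lower. Tnfrsf12a, the receptor of TWEAK, rose by 3.49 ± 0.24, the necroptosis kinase Ripk3 by 1.67 ± 0.29, the inflammatory caspase Casp4 by 1.36 ± 0.27 and Bik by 1.31 ± 0.41, while Bcl2l2 fell (-0.86 ± 0.10) and Mlkl (0.22) and Gsdmd (0.17) did not pass. Ripk3, Casp4 and Bik were at 0.95, 0.80 and 0.61 under normexp correction, and the Bik call was lost with quantile normalization. The list median of 0.31 turned to -0.02 with each array set to its median.

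Stress pathways of the endoplasmic reticulum parted. Of 17 chaperones and folding enzymes tested, 16 fell and 0 rose, with a median of -0.89. Pdia4, a disulphide isomerase, was at 4.88, 4.99, 4.64 and 4.45 in normal podocytes and 2.02, 2.69, 3.11 and 2.39 at day 7, a difference of -2.19 ± 0.20 (adjusted p = 4.7e-07). Hspa5, the chaperone BiP, fell (-0.66 ± 0.24), Hsp90b1 (-1.13 ± 0.20), the degradation factor Edem1 (-1.13 ± 0.10), Sdf2l1 (-1.59 ± 0.35) and Xbp1, the factor that drives the set, (-0.83 ± 0.20). Of 17 genes of the integrated stress response, which answers shortage of amino acids and stalled translation, 10 rose and 2 fell. Chac1, which breaks down glutathione, was at -3.02, -1.58, -2.03 and -3.21 on the normal arrays and 1.80, 2.99, 1.20 and 0.74 at day 7, a difference of 4.15 ± 0.43 (adjusted p = 1.7e-06). The serine and asparagine synthesis genes Psat1, Phgdh and Asns rose by 3.96 ± 0.25, 2.64 ± 0.38 and 2.89 ± 0.26, the hormone gene Fgf21 rose at least 7.40-fold, and Atf4 itself rose by 0.72 ± 0.20. Under normexp correction the fitted difference of Fgf21 was 1.02 log2 units, smaller than its bound. Ddit3, which encodes the factor CHOP, fell (-0.88 ± 0.25). Chac1, Phgdh and Asns were higher at day 7 than at day 4 by 3.39, 2.72 and 2.25, no day 4 array of Fgf21 was above background, and Ddit3 was lower (-0.97 ± 0.25). Across the chaperones, 9 were lower at day 7 than at day 4 and 0 higher.

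Lysosomal and iron genes fell in 14 of 21 cases and rose in 5. Psap, the precursor of the saposins, fell (-2.11 ± 0.19), and Tfrc, the transferrin receptor, (-1.81 ± 0.18), with its other probes at -0.20 and -0.34. The ferritin chains Ftl1 and Fth1 rose by 1.23 ± 0.12 and 0.65 ± 0.18 and the iron exporter Slc40a1 by 1.48 ± 0.25 (0.90 under normexp correction). Among the oxidative phosphorylation subunits 9 of 24 fell and 0 rose, close to the 36.7% of all genes that fell, and 5 fell without replicate 4 of both groups. Among them were Sdha (-0.45 ± 0.11), Ndufb5 (-0.37 ± 0.13) and Atp5c1 (-0.35 ± 0.13), subunits of complexes of the respiratory chain and of ATP synthase, and the last 2 calls were lost under 5 and 6 alternatives.

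Markers of other cell types were read on the same arrays. Their counts are to be read beside the 21.6% of all genes called higher and the 36.7% called lower. None of 22 proximal tubule markers was called, and the mean of the list on the day 7 arrays was -1.31, -0.58, -0.20 and 2.10 relative to the normal mean, against -0.61, -0.18, -0.35 and 1.13 on the normal arrays. Replicate 4 was the highest array of these 2 groups, and the summed level ran from 71.2 to 262 in normal podocytes and 39.7 to 501 at day 7. Without those 2 arrays, the calls of Cnn1 and Wfdc2 were among those lost, and the counts were 2 higher for endothelial, 4 higher for mesangial and 3 higher for parietal markers, 1 lower for proximal tubule, 1 lower for distal nephron, 0 lower for leukocyte and 3 lower for red blood cell markers. Of 22 endothelial markers 5 rose and 3 fell, the summed level was 376 to 447 on the normal arrays and 206 to 263 at day 7, or 63.3 to 114 and 70.6 to 103 without its brightest member, Cldn5. The defining markers Pecam1 (0.37 ± 0.15), Cdh5 (-0.11 ± 0.24) and Emcn (-1.12 ± 0.26) differed in sign or call. The other endothelial genes with the largest changes were Ecscr (2.05 ± 0.24), Esam (1.04 ± 0.28) and the glomerular Ehd3 (-1.41 ± 0.24). The list median of 0.19 turned to -0.15 with each array set to its median and to -0.02 without those 2 arrays. Of 19 leukocyte markers 6 rose and 1 fell, with a summed level of 26.9 to 36.6 on the normal arrays and 21.6 to 39.9 at day 7. Without the brightest member, Itgam, the sum was 9.22 to 12.4 and 10.8 to 19.3. The leukocyte rises were led by Cd79b (3.34 ± 0.50), S100a8 (2.79 ± 1.00), Aif1 (2.12 ± 0.42) and Cd79a (1.66 ± 0.30). Under normexp correction these were 1.10, 0.99, 0.88 and 0.61, and the S100a8 call was lost there and under 6 other alternatives. Ptprc was above background on 1 array of each group.

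Red blood cell markers fell in 5 of 6 cases, the globins Hba-a1 (-1.86 ± 0.56), Hba-a2 (-1.53 ± 0.60) and Hbb-bt (-1.64 ± 0.62) and the anion exchanger Slc4a1 (-0.78 ± 0.30) by measured values and Hbb-bs by at least 2.48-fold, and their summed level was 10.9 to 21.2 on the normal arrays and 3.00 to 6.52 at day 7. Under normexp correction the calls of Hbb-bs (-0.01), Hbb-bt (-1.13) and Slc4a1 (-0.14) were lost, and each of these 3 and Hba-a2 lost its call without at least 1 array of those left out in turn. Parietal epithelial markers rose in 5 of 8 cases, Cldn1 by 2.21 ± 0.36, Krt18 by 2.13 ± 0.42 and the defining Pax8 and Wfdc2 by 0.94 ± 0.23 and 1.09 ± 0.33. Their mean was 1.42, 1.27, 0.21 and 1.41 on the day 7 arrays relative to the normal mean, with replicate 3 apart from the others. The summed level was 12.98 to 19.0 on the normal arrays and 12.9 to 22.7 at day 7. Without the brightest member, Aldh1a2, it was 7.66 to 9.15 and 6.985 to 15.53. Distal nephron markers were called higher in 2 and lower in 2 of 15 cases, beside 21.6% of all genes higher and 36.7% lower. They were Hsd11b2 (2.76 ± 0.29) and Aqp3 (2.22 ± 0.34) against Aqp2 (-1.19 ± 0.31) and Slc4a1, with Hsd11b2 at 0.57 under normexp correction. The defining Umod (0.68 ± 0.41) and Slc12a1 (-0.36 ± 0.46) were not called, and the list median of 0.20 had the opposite sign under several alternatives. How far RNA of these cells enters the differences above was not tested.

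**Figure D4:**
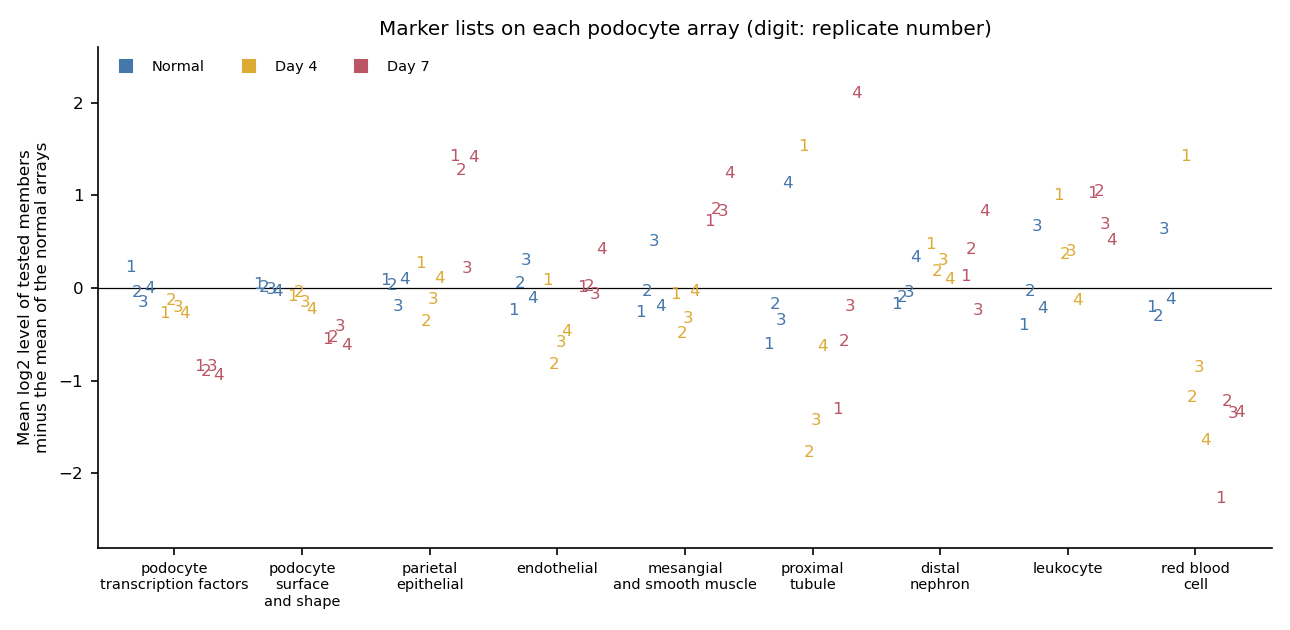
Mean log2 level of the tested members of 2 podocyte lists and 7 lists of other cell types on each podocyte array, minus the mean of the normal arrays; each digit is the replicate number of an array and the colour its group. The podocyte lists lie lower on all 4 day 7 arrays than on any normal array, the proximal tubule markers are highest on replicate 4 within the normal and day 7 groups and on replicate 1 within the day 4 group, and the red blood cell markers lie lower on every day 7 array than on any normal array.

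Day 7 was last set against day 4, on the same slide and with the same genotype. Median differences between day 7 and day 4 were 1.07 for actin and adhesion, 1.17 for cytokines, 1.05 for injury-related matrix and 0.95 for proteases, beside -0.07 over all genes. They were 0.49 for immediate early genes, 0.52 for NF-kappaB and 0.14 for p53 targets. Podocyte transcription factors, surface genes and chaperones were at -0.76, -0.35 and -0.52. The day 7 and day 4 differences from normal share the same 4 normal arrays, so they are given side by side only. Against normal, Timp1 was at 1.75 at day 4 and 6.47 at day 7, Tagln at 1.61 and 6.01, Wt1 at -0.14 and -0.99, Nphs1 at -0.54 and -1.45, and Egr1 at 6.15 and 6.38.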

How the data were processed

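RNA was labelled with Cy3 and measured on 16 one-colour Agilent arrays, 4 per group. The groups were immunoprecipitated podocyte polysomes of normal, day 4 and day 7 mice, and a group titled normal glomerular cells. The arrays were read with Agilent Feature Extraction 11.5.1.1 per the submitters' processing notes. The deposited scanner files hold processed intensity values, background-subtracted by that software per the file headers. The deposited value table holds log2 values, each column differing by a constant from log2 intensity of an array of the same group, with medians from -3.17 to -2.70 over the 8 arrays compared. For replicates 1 to 3 of the normal podocytes that array carried another replicate number. How its centre was set is not given in the sources used here.

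For the main results, control and outlier spots were left out, log2 processed intensity was taken, and each array's 75th percentile was subtracted. Spots of 1 probe were averaged. The accession that the scanner files give for each probe was matched to the RefSeq and Ensembl accessions of mouse genes. This named 26582 of 55681 probes with 1 gene, 20145 genes in all, and 29099 probes matched no gene. Probes flagged well above background throughout at least 1 group of 4 were kept, and a gene was read from its kept probe with the highest mean. The glomerular group counted here too, so a gene dim in podocytes could be kept through that group alone. A gene dim in normal podocytes and kept through another group could rise but hardly fall. Of called genes with several kept probes, 82.7% of 2232 had all probes on 1 side. Differences were fitted over all 16 arrays with limma 3.58.1 in R 4.3.3 (lmFit, then eBayes, leaving 12 residual degrees of freedom), with group as the only term and Benjamini-Hochberg adjustment over 14587 genes. The scripts were tested on simulated data. The precision is limited by 4 arrays a group.

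The members and gene lists were chosen with earlier results of these data known. Named genes were the 12 largest rises and falls among called genes above background on all 8 arrays with groups that do not overlap, the 5 largest bounds in each direction, the called members of each list with the 4 largest differences, members named for their role, and Nphs1, Wt1, Timp1, Thbs4, Rpl22 and Eef2. Counts over 146 named genes leave out the members named only for their role. Clone and predicted identifiers were not named, and some genes these rules pick are not reported here, although list counts and medians include them. Bounds set the mean of the bright group against, per array of the dim group, the higher of its own signal and the lowest signal among probes well above background. They hold for the main processing, and normexp correction gave smaller changes for several of these genes.

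The alternatives were quantile normalization, centring on the array median, normexp background correction (offset 50) with either scaling, the value table, no filter or a filter on the 2 groups compared, the mean of a gene's probes, the 8 arrays alone, replicate number as a block, and leaving out each array, those of day 4 chosen after seeing the data. Replicate numbers are shared by the groups, but the deviations of same-numbered arrays correlated at 0.17, -0.03, 0.06 and 0.49 in turn, so they were not taken as pairs.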

Additional observations from a re-analysis of the deposited data

Results flagged for a closer look

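Single arrays that stood far from the other 3 of their group were found in 12 groups of values, of 292 examined for named genes and 66 for lists, and chance gives about 1 in 20. On the normal arrays, Des was at -1.19 on replicate 2 (others -1.66 to -1.62), Nid1 at 0.34 on replicate 4 (0.64 to 0.66), Rpl22 at 3.94 on replicate 1 (3.58 to 3.62), Socs2 at 1.00 on replicate 3 (0.21 to 0.28) and Spata21 at -0.91 on replicate 1 (-1.83 to -1.76). On the day 7 arrays, Hsp90b1 was at 5.70 on replicate 1 (6.19 to 6.26), Slc4a1 at -3.59 on replicate 2 (-3.69 to -3.68) and Slit2 at -3.42 on replicate 3 (-2.71 to -2.57). Among list means relative to normal, the JAK-STAT list was at 0.48 on day 7 replicate 1 (others 0.07 to 0.12), the immediate early genes at 0.42 on normal replicate 3 (-0.19 to -0.09), the parietal markers at 0.21 on day 7 replicate 3 (1.27 to 1.42) and the red blood cell markers at -2.27 on day 7 replicate 1 (-1.35 to -1.22).

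The response against normal differed between day 7 and day 4 for 107 of 146 named genes by limma's adjusted p, and by at least 2-fold for 88. Over all genes 33.9% were called, 6.18% at least 2-fold higher and 2.61% at least 2-fold lower. Most named genes were chosen for large differences on the same day 7 arrays, so a high count is partly built in by that choice. The values are day 7 minus day 4 on the log2 scale, and those of genes below background in a group are fitted values, not bounds. Without day 4 replicate 1, the array apart from its group in markers of other cells, 5 of the 107 lost their calls, Myo1g, Ccnb2, Trim69, Ehd3 and Aqp2. 9 genes were higher at day 7 by 4 or more: Crct1 8.30, S100a6 6.01, Ccl2 5.09, Timp1 4.72, Col5a3 4.52, Tgfb3 4.43, Tagln 4.40, Ccl7 4.28 and Plaur 4.01. 12 were higher by 2.5 to 4: Fgf21 3.54, Cnn1 3.47, Chac1 3.39, Tgfb2 3.21, S100a8 3.19, Rnd1 2.97, S100a4 2.96, Nfkbie 2.92, Des 2.86, Ankrd1 2.59, Bik 2.54 and Plk2 2.51. 21 were higher by 1.7 to 2.5: Saa3 2.46, Krt18 2.42, Cnn2 2.41, Osmr 2.41, Lgals3 2.26, Asns 2.25, Angptl4 2.21, Cdkn2a 2.19, Ccn2 2.16, Thbs4 2.13, Ecscr 2.12, C3 2.10, Itga5 2.08, Psat1 2.06, Mmp13 2.05, Ccn1 2.03, Trim69 2.00, Actn1 1.90, Ripk3 1.78, Cxcl10 1.77 and Krt8 1.75. 19 were higher by 1 to 1.7: Clu 1.67, Acta2 1.66, Icam1 1.63, Cdkn2b 1.61, Cldn1 1.60, Myo1g 1.59, Fosl1 1.55, Socs2 1.51, Tnfrsf12a 1.47, Lrrc36 1.46, Plk1 1.37, Ccnb2 1.33, Casp4 1.26, Col4a1 1.19, Esam 1.17, Nid1 1.15, Slc40a1 1.14, Isg15 1.11 and Axl 1.02. 15 were lower by 2 or more: Opcml -4.08, Sema3g -2.94, Kcna6 -2.83, Ube2ql1 -2.80, Pld6 -2.71, Adra2c -2.66, Megf10 -2.66, Cyp26a1 -2.52, Ddn -2.27, Plk5 -2.20, Ngb -2.16, Sla -2.16, Angptl2 -2.14, Rassf10 -2.09 and Spata21 -2.09. 12 were lower by 1 to 2: Aif1 -1.50, Thsd7a -1.45, Irf1 -1.38, Birc5 -1.27, Rhpn1 -1.26, Cacna2d2 -1.26, Enpep -1.25, Epha8 -1.24, Vegfa -1.24, Foxc2 -1.20, Pdia4 -1.19 and Sdf2l1 -1.06.

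Probes with no gene name were not used in the comparisons. Of 29056 such probes, 342 were well above background on all 4 day 7 arrays and on no normal podocyte array, and 105 showed the reverse.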

How the results depend on the processing

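List members named only for their role, such as Tead1, are not among the 146 named genes counted here. Of these 146, 129 kept direction and call under each of the 19 alternatives that tested them (Hsd11b2, C1qa and S100a8 were not among the genes of the filter on the 2 groups). A call was lost under at least 1 by 15, Eef2 gained one, and Rpl22 gained one or, with the mean of its probes, changed sign (-0.43). With each array set to its median 1932 genes were higher, and 2679 were at least 2-fold lower. Under normexp with the 75th percentile 919 genes were at least 2-fold higher and 712 lower, and under normexp with quantile normalization 890 and 483. Against day 4 these 2 settings gave 393 and 426 at least 2-fold higher, and 206 and 199 lower. The podocyte transcription factors had 1 member called higher, Tead1, with quantile normalization, with normexp and quantile normalization, with the mean of a gene's probes and without normal replicate 1. With each array set to its median, list medians changed sign for the basement membrane (-0.054), antigen presentation (-0.045), cell death (-0.024), endothelial (-0.15) and distal nephron lists (-0.14). Leaving out arrays gave endothelial medians from -0.024, without replicate 4 of both groups, to 0.29. The distal nephron median was also below 0 with quantile normalization (-0.12), normexp with quantile normalization (-0.023), the filter on the 2 groups (-0.13), the mean of a gene's probes (-0.0055) and without replicate 4 of both groups (-0.041), and leaving out 1 array gave -0.073, without day 7 replicate 4, to 0.35. Why these values moved was not tested.

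Leaving out arrays gave 2824 to 3141 genes higher, 4891 to 5251 lower, 1665 to 1833 at least 2-fold higher and 977 to 1246 at least 2-fold lower. The ranges were 3 to 4 higher and 8 to 10 lower for the slit diaphragm, 2 to 3 and 13 to 14 for surface and shape, and 0 to 1 and 9 to 11 for transcription factors. Against day 4 they were 1548 to 1966 higher, 2238 to 3126 lower, 767 to 977 at least 2-fold higher and 353 to 408 lower. With replicate number as a block on the 8 arrays, 2881 genes were higher and 4319 lower, and 4 named genes lost their calls. A fit with the slide as a block could not be made, because slide and group coincide. Dim probes limit the fall or rise that can be measured, as the bounds show.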
